A study of Mus musculus with 8 samples.

Results

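The SR proteins, the hnRNPs, the Tra2 proteins and the CLK and SRPK kinases were examined in the cerebellum of mice built to express a calcium pump in astrocytes. Members were the rows of the deposited count table named Srsf with a number, Hnrnp with any ending, Clk1 to Clk4, Srpk1, Srpk2, Tra2a or Tra2b, with 10 or more counts in at least 4 of 8 libraries. This gave 39 genes of the 24060 rows: 11 SR proteins, 20 hnRNPs, 2 Tra2 proteins and 6 kinases. All 39 matching rows passed the count minimum, and none came near it, since the row with the lowest counts, Hnrnpa1, had 65 or more in every library.

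RNA was sequenced from whole cerebellum of 4 bigenic mice, which carry the CalExflox allele and the Aldh1l1-Cre/ERT2 allele, and of 4 control mice, which carry CalExflox alone. CalEx is a plasma membrane calcium pump that exports calcium and lowers its level inside the cell, and the Aldh1l1 regulatory sequence drives a tamoxifen-activated Cre recombinase in astrocytes. Every mouse, controls included, had 1 intraperitoneal dose of tamoxifen in corn oil at 75 mg/kg, and tissue was taken 5 days afterwards. Sex, age and hour of collection are not given. Cre is present in the bigenic mice alone, so the effect of the pump and that of Cre cannot be told apart, and no row of the table measures the pump. The RNA is from bulk tissue, in which more cells of a type and more RNA per cell cannot be told apart.

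SR proteins have RNA recognition motifs and a tail rich in arginine-serine repeats, bind exons and recruit the spliceosome to nearby splice sites. SRPK kinases phosphorylate that tail in the cytoplasm, which allows import into the nucleus, and CLK kinases phosphorylate it further in the nucleus and release SR proteins from nuclear speckles. hnRNPs coat pre-mRNA, and many of them block the use of splice sites, whereas Tra2 proteins are SR-like activators. Many of these genes regulate their own level by splicing in an exon with a premature stop codon, which sends the transcript to nonsense-mediated decay.

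Such exons are printed for 5 members because a count per gene adds up productive and decaying transcripts, so that the values below measure their sum. The same search also found such exons in Srsf4, Srsf9, Srsf11 and Hnrnpll, which are not printed. In the GENCODE M21 annotation 27 of the 39 members have at least 1 transcript classed as nonsense-mediated decay and 30 have at least 1 with a retained intron. The stretches below run 5′ to 3′ from the start of the exon to its in-frame stop codon, which is in capitals. Each exon is absent from every protein-coding transcript of its gene. By GRCm38 coordinates the exon of Tra2b lies at chr16:22258986-22259261, minus strand, that of Tra2a at chr6:49252803-49253108, minus strand, that of Srsf3 at chr17:29039454-29039909, plus strand, that of Srsf7 at chr17:80204622-80205081, minus strand and that of Hnrnpl at chr7:28817335-28817404, plus strand.
Tra2b: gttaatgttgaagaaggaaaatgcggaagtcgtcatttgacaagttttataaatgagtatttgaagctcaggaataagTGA
Tra2a: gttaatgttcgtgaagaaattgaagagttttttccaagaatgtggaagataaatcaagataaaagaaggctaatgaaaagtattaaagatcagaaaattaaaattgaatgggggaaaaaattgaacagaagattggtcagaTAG
Srsf3: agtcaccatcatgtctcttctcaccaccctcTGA
Srsf7: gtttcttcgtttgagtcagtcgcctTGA
Hnrnpl: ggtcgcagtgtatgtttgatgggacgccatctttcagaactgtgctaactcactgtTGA
The exons are 276 bases long in Tra2b, 306 in Tra2a, 456 in Srsf3, 460 in Srsf7 and 70 in Hnrnpl. The frame ends after 81 bases in Tra2b, 144 in Tra2a, 34 in Srsf3, 28 in Srsf7 and 59 in Hnrnpl. Of the 27 members with an annotated decay transcript 11 were called higher and 3 lower in bigenic cerebellum, and of the 12 without one 3 were called higher and 2 lower, by the edgeR test described below. These are 51.9% and 41.7% of their genes, beside 44.3% of all genes tested (21.4% higher and 22.9% lower). Without control libraries 2 and 3 the counts were 9 higher and 1 lower of 27, and 3 higher and 2 lower of 12. In that setting 21.9% of all genes were called.

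Counted reads ranged from 35208460 to 38293012 per library, and the 39 members took between 0.429% and 0.513% of them in bigenic and between 0.415% and 0.440% in control libraries. The summed CPM (counts scaled to library size with TMM factors) of 12 astrocyte markers was 12450 to 14230 in bigenic and 10100 to 10540 in control libraries, with 7 of the 12 genes called higher and 1 lower. That of 10 microglia markers was 147.3 to 176.3 in bigenic and 194.7 to 231.5 in control libraries (4 of 10 called, each lower), and that of 10 endothelial markers 225.8 to 247.4 in bigenic and 258.3 to 289.9 in control libraries (3 of 10 called, each lower). Granule neuron (6160 to 8445 against 5937 to 7236; 3 higher and 2 lower of 10), Purkinje cell (14460 to 16190 against 12800 to 14990; 2 of 10 called, both higher) and oligodendrocyte markers (4520 to 6066 against 4202 to 5103; 3 higher and 3 lower of 10) overlapped between bigenic and control libraries. Granule neuron and Purkinje cell markers, which define cerebellar cortex, were thus present in all 8 libraries. Choroid plexus markers summed to 50.07 to 57.27 CPM in bigenic libraries and to 360.5, 2553, 3195 and 46.05 CPM in control libraries 1 to 4, with 9 of 10 called, each lower. Of astrocyte, microglia, endothelial and granule neuron markers 66.7%, 40%, 30% and 50% were called, beside 44.3% of all genes tested. For Purkinje cell, oligodendrocyte and choroid plexus markers the share was 20%, 60% and 90%. Without control libraries 2 and 3 the 7 shares in this order were 33.3%, 40%, 20%, 20%, 10%, 10% and 30%, beside 21.9% of all genes. The part of these cell types in the results below was not tested.

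Bigenic and control cerebella differed in 19 of the 39 members, of which 14 were higher and 5 lower in bigenic tissue (edgeR quasi-likelihood test, Benjamini-Hochberg adjusted p under 0.05 over all genes). Of all 15186 genes tested 44.3% were called, 21.4% higher and 22.9% lower, so that the called share of the members, 48.7%, was near the background, as it was beside the 46.8% called among genes at or above the lowest member's mean CPM. Bigenic and control libraries did not overlap in CPM for 19 members, or 48.7%, beside 40.7% of all genes. The direction was less even among the members, with 35.9% called higher and 12.8% lower. More than a 1.5-fold rise was called for 10 members, or 25.6%, beside 8.22% of all genes, and more than a 1.5-fold fall for 1 member, or 2.56%, beside 11.3%. The median log2 fold change of the 39 members was 0.12, and over all genes it was -0.0041. With library size in place of TMM scaling 13 members were higher and 9 lower, beside 44.8% of all genes called, with 35.7% higher among all calls in place of 48.2%. Without control libraries 2 and 3, which had the highest summed choroid plexus markers, 12 members were higher and 3 lower, where 21.9% of all genes were called. That setting kept control library 1, whose choroid plexus markers summed to 360.5 CPM, above the 50.07 to 57.27 CPM of the bigenic libraries. Fewer controls also give the test less power. Leaving out bigenic libraries 1 to 4 in turn left 17, 22, 20 and 18 members called, beside 38.9%, 48.3%, 41.1% and 36.4% of all genes, and leaving out control libraries 1 to 4 in turn left 20, 17, 18 and 18, beside 42.2%, 34.5%, 36.6% and 37.8%. The count of lower members was 3 without bigenic library 1 or control library 2. DESeq2 called 20 members and 40.5% of all genes, upper-quartile factors 22 and 44.4%, and a filter of 10 or more counts in 4 libraries 19 and 44.2%. Ttr, a choroid plexus gene, taken as a covariate left 11 members called, 8 higher and 3 lower, beside 19.3% of all genes.

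The gene whose promoter drives Cre, Aldh1l1, averaged 140.6 ± 7.71 CPM over the bigenic libraries, against 101.2 ± 2.64 CPM over the controls (SD, n = 4 each), and was called higher; Atp2b2, the mouse counterpart of the pump in CalEx, did not pass (log2 fold change 0.25, adjusted p = 0.31).

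**Figure D1:**
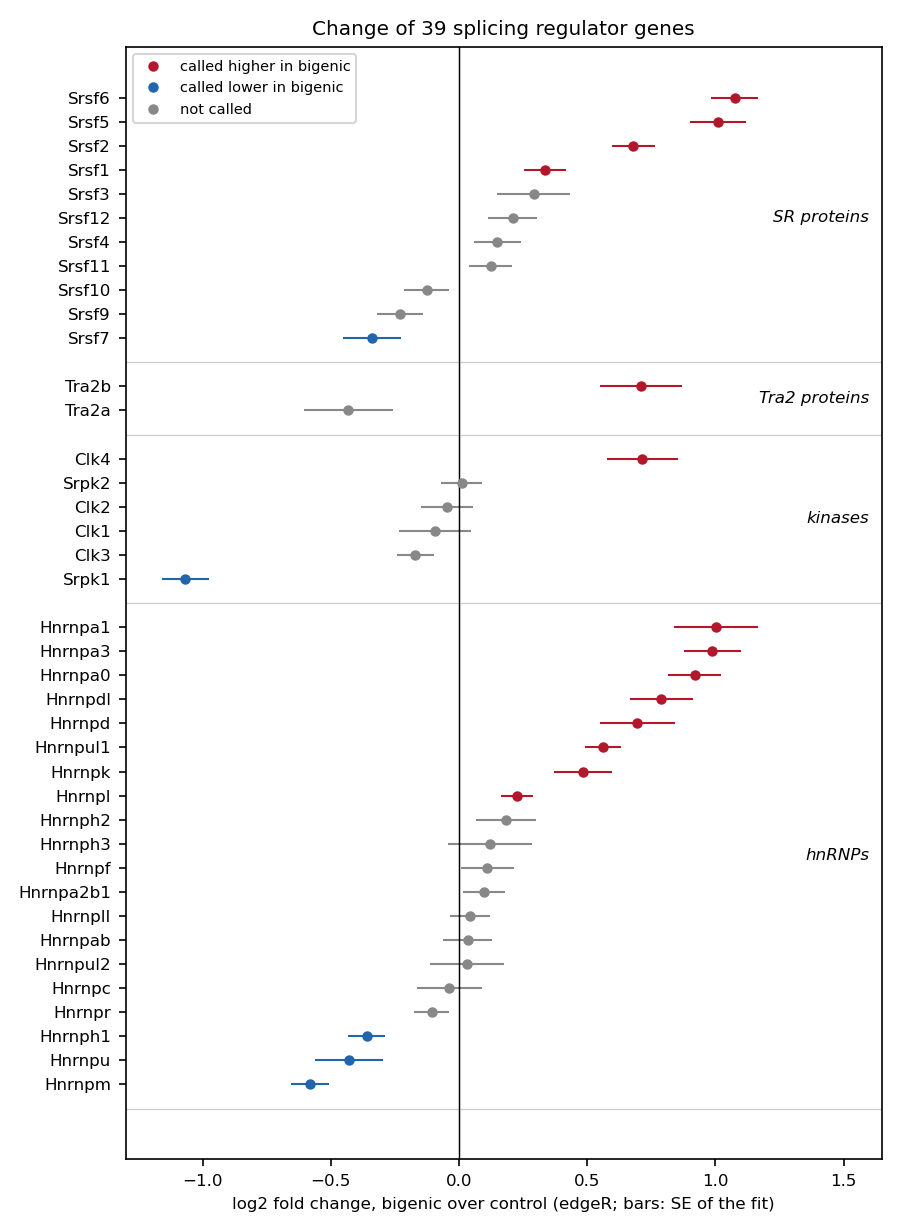
Log2 fold change of each of the 39 genes, bigenic over control, on the horizontal axis, with the standard error of the edgeR fit as bars and 4 libraries per group. Red points were called higher (14 genes) and blue points lower (5 genes) in bigenic cerebellum; Srsf6 lies at 1.07 and Srpk1 at -1.07.

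Among SR proteins 4 of 11 rose and 1 fell in bigenic cerebellum, and the median of the 11 log2 fold changes was 0.21. These calls are 45.5% of the class (36.4% higher and 9.09% lower), beside 44.3% of all genes tested (21.4% and 22.9%). Without control libraries 2 and 3, 3 of the 11 were called, each higher, or 27.3% beside 21.9% of all genes. Srsf6 (ENSMUSG00000016921.14, chromosome 2, 162931528 to 162937121, plus strand), which encodes a splicing activator with paired RNA recognition motifs, stood at 138, 132, 169.5 and 139 CPM across bigenic libraries 1 to 4, against 75.4, 66.3, 64 and 68.6 CPM across control libraries 1 to 4. Every bigenic library lay above every control library. The log2 fold change was 1.07 ± 0.09 (SE of the fit, adjusted p = 1.3e-05), a 2.11-fold rise. Srsf5 (ENSMUSG00000021134.17, chromosome 12, 80945504 to 80950507, plus strand), the most abundant SR protein gene per length here, stood at 206, 223, 282 and 228 CPM across bigenic libraries 1 to 4, against 133, 111, 120.1 and 102 CPM across control libraries 1 to 4. The groups did not overlap, and bigenic library 3 was the highest. Its log2 fold change was 1.01 ± 0.11 (SE of the fit, adjusted p = 5.4e-05), and its level per length was 138 ± 17 FPKM in bigenic and 72.5 ± 7.72 FPKM in control cerebella (SD, n = 4 each). Of the 75-base stretches of Srsf5 coding transcripts 18.2% also occur in the pseudogene Gm12966, so reads could be split or lost there.

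Srsf2 (ENSMUSG00000034120.18, chromosome 11, 116849901 to 116853094, minus strand), also known as SC35 and used as a marker of nuclear speckles, stood at 156, 138, 176 and 162 CPM across bigenic libraries 1 to 4, against 105, 93, 97.4 and 98.9 CPM across control libraries 1 to 4. Its log2 fold change was 0.68 ± 0.08 (SE of the fit, adjusted p = 0.00011), with no overlap between the groups. Srsf2 exons overlap Mettl23 and Mfsd11 on the opposite strand, and reads from them cannot be told apart if the counting did not use strand. Srsf1 (ENSMUSG00000018379.17, chromosome 11, 88047373 to 88053755, plus strand), among the earliest SR proteins to be characterised, stood at 397, 331, 433 and 373 CPM across bigenic libraries 1 to 4, against 303, 299, 308 and 307 CPM across control libraries 1 to 4. The groups did not overlap, and the log2 fold change was 0.33 ± 0.08 (SE of the fit, adjusted p = 0.0069). The call of Srsf1 was lost without control libraries 2 and 3 (adjusted p = 0.076), where its log2 fold change was 0.33.

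Srsf7 (ENSMUSG00000024097.11, chromosome 17, 80200080 to 80207307, minus strand), which has a zinc knuckle beside its RNA recognition motif, was the SR protein gene called lower. It stood at 99.2, 72.4, 107 and 104 CPM across bigenic libraries 1 to 4, against 118, 116, 115 and 135 CPM across control libraries 1 to 4, and bigenic library 2 was the lowest of the 8. The log2 fold change was -0.34 ± 0.11 (SE of the fit, adjusted p = 0.031). That call was lost when any of these were left out: bigenic library 1 (log2 fold change -0.35, adjusted p = 0.052), control 2 (-0.36, 0.052), control 4 (-0.29, 0.088), or controls 2 and 3 together (-0.41, 0.083). Without bigenic library 2 the log2 fold change was -0.23 and still called. The other 6 SR protein genes did not pass, with log2 fold changes between -0.23 and 0.29. Srsf3, a small SR protein that also acts in mRNA export, stood at 176, 129.7, 225 and 209 CPM across bigenic libraries 1 to 4, against 139, 149, 151 and 166 CPM across control libraries 1 to 4. Bigenic libraries 1, 3 and 4 lay above the controls and bigenic library 2 below them, and the log2 fold change was 0.29 ± 0.14 (SE of the fit, adjusted p = 0.12). Without bigenic library 2 it was 0.43 (adjusted p = 0.0029), and without bigenic library 3 it was 0.17 (adjusted p = 0.33). Of the 75-base stretches of Srsf3 25.2% are shared with 3 other genes, 2 of them pseudogenes. Srsf9 stood at 18.5, 20.6, 17.1 and 17.9 CPM across bigenic libraries 1 to 4, against 23.4, 20.8, 21 and 21.8 CPM across control libraries 1 to 4, with a log2 fold change of -0.23 ± 0.09 (SE of the fit, adjusted p = 0.058). It did not overlap between the groups, and without bigenic library 2 it was called lower (log2 fold change -0.29, adjusted p = 0.017). It was also called lower with library size in place of TMM (-0.31, adjusted p = 0.018), with upper-quartile factors (-0.29, adjusted p = 0.026) and in the 3 limma fits of log2 FPKM. Srsf9 was not called in 14 of the 20 alternatives run. Without control libraries 2 and 3 it was at -0.29 (adjusted p = 0.13). With Ttr as a covariate it was at -0.27 (adjusted p = 0.22). Srsf10, Srsf11, Srsf12 and Srsf4 had log2 fold changes of -0.13 (adjusted p = 0.26), 0.12 (adjusted p = 0.25), 0.21 (adjusted p = 0.096) and 0.15 (adjusted p = 0.2). Leaving out 1 library moved them between -0.19 and -0.067 for Srsf10, 0.046 and 0.16 for Srsf11, 0.14 and 0.25 for Srsf12, and 0.079 and 0.20 for Srsf4. For Srsf4 63.8% of the 75-base stretches are shared with Gm12992, which overlaps it on the opposite strand.

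Tra2b and Tra2a, which encode paralogous SR-like activators, differed in direction. Tra2b (ENSMUSG00000022858.16, chromosome 16, 22244549 to 22266005, minus strand), whose premature-stop exon is printed above, stood at 88.2, 84, 148 and 108 CPM across bigenic libraries 1 to 4, against 56.4, 65, 69.7 and 70.5 CPM across control libraries 1 to 4. The groups did not overlap, bigenic library 3 was far above the other bigenic libraries, and the log2 fold change was 0.71 ± 0.16 (SE of the fit, adjusted p = 0.0044). Without bigenic library 3 the log2 fold change of Tra2b was 0.51. Tra2a (ENSMUSG00000029817.11, chromosome 6, 49243924 to 49264033, minus strand) stood at 28, 33.9, 53.4 and 36.7 CPM across bigenic libraries 1 to 4, against 42.4, 50.5, 51.6 and 60.4 CPM across control libraries 1 to 4. Bigenic libraries 1, 2 and 4 lay below the controls and bigenic library 3 among them, and the log2 fold change was -0.43 ± 0.17 (SE of the fit, adjusted p = 0.065). Tra2a was called lower without bigenic library 3 (log2 fold change -0.65, adjusted p = 0.0026) and without control library 1 (-0.51, adjusted p = 0.044). It was also called lower with the DESeq2 Wald test (-0.42, adjusted p = 0.048) and with library size in place of TMM (-0.52, adjusted p = 0.028). The same held with upper-quartile factors (-0.49, adjusted p = 0.039) and in the 3 limma fits of log2 FPKM. Tra2a was not called in 11 of the 20 alternatives run. Without control libraries 2 and 3 it was at -0.44 (adjusted p = 0.19). With Ttr as a covariate it was at -0.615 (adjusted p = 0.11). Pseudogenes hold 14.4% of the 75-base stretches of Tra2b and 0% of those of Tra2a.

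**Figure D2:**
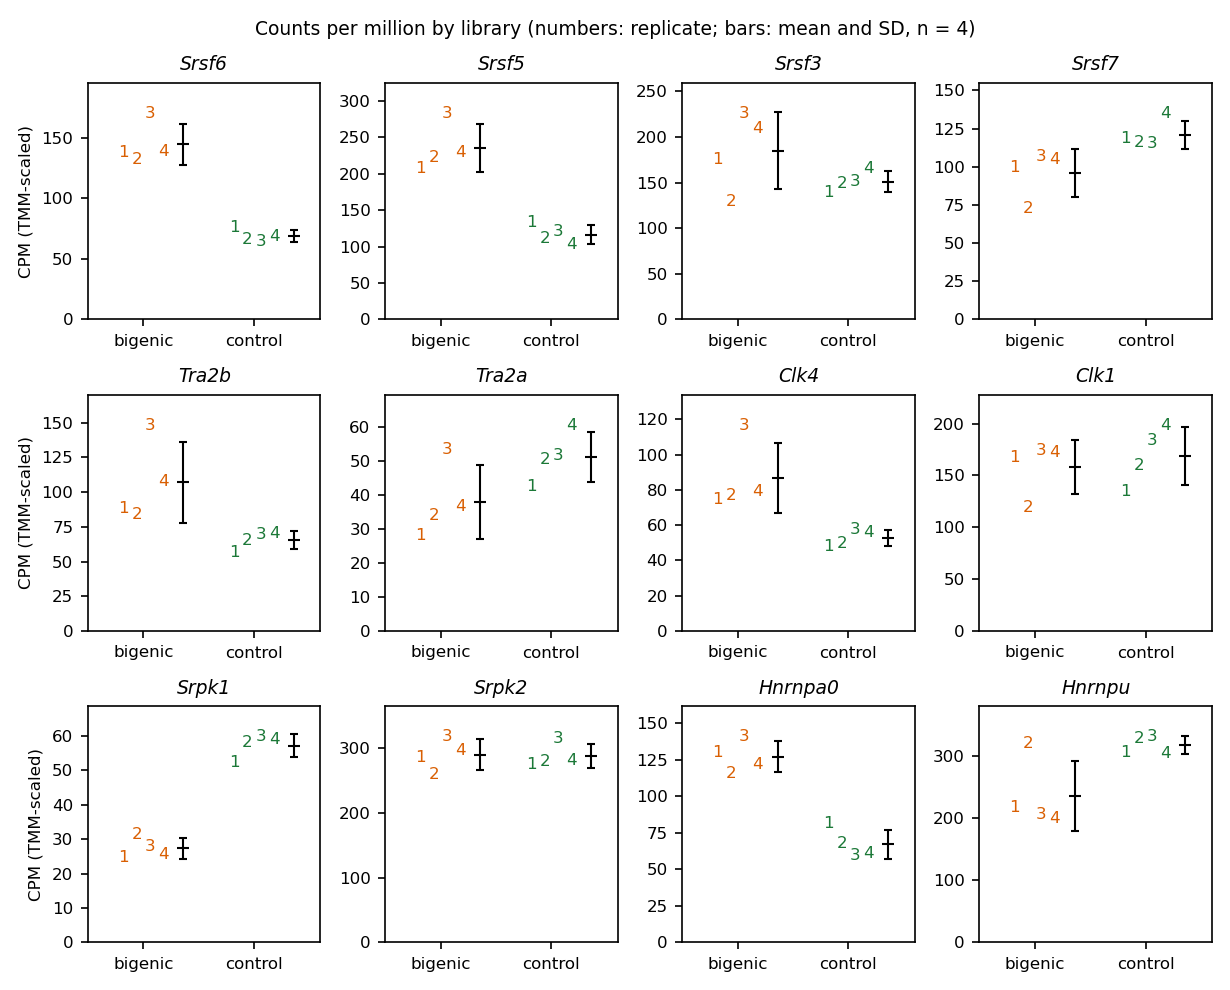
CPM (vertical axis, from 0) of 12 members in each library, bigenic left of control, with the replicate number as the symbol and the mean and SD of 4 libraries beside it. Srsf6, Srsf5, Tra2b, Clk4 and Hnrnpa0 lie above the controls in every bigenic library and Srpk1 and Srsf7 below them, whereas Srsf3, Tra2a, Clk1, Srpk2 and Hnrnpu overlap.

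Of the kinases, Srpk1 fell and Clk4 rose in bigenic cerebellum, and the other 4 did not pass. The same counts held without control libraries 2 and 3. The called share was 33.3% in both, beside 44.3% of all genes tested, or 21.9% without those controls. Srpk1 (ENSMUSG00000004865.16, chromosome 17, 28587648 to 28622709, minus strand), the cytoplasmic SR protein kinase, stood at 24.6, 31.3, 27.8 and 25.4 CPM across bigenic libraries 1 to 4, against 52.1, 57.9, 59.7 and 58.9 CPM across control libraries 1 to 4. Every bigenic library lay below every control library, with a log2 fold change of -1.07 ± 0.09 (SE of the fit, adjusted p = 1.3e-05), a 2.1-fold fall, and Srpk1 kept its call under all 20 alternatives run. Srpk2 (ENSMUSG00000062604.11, chromosome 5, 23503264 to 23684617, minus strand), its paralogue and the more abundant of the pair, stood at 286, 260.2, 318 and 297 CPM across bigenic libraries 1 to 4, against 275, 279, 316 and 281 CPM across control libraries 1 to 4. The ranges overlapped, and the log2 fold change was 0.01 ± 0.08 (SE of the fit, adjusted p = 0.92). Per length Srpk1 was at 10.8 ± 1.11 FPKM in bigenic and 24 ± 1.47 FPKM in control cerebella (SD, n = 4 each), and Srpk2 was at 43.7 ± 3.32 FPKM in bigenic and 46 ± 2.57 FPKM in control cerebella (SD, n = 4 each).

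Clk4 (ENSMUSG00000020385.16, chromosome 11, 51261730 to 51281766, plus strand), a nuclear dual-specificity kinase of SR proteins, stood at 74.5, 76.6, 117 and 79 CPM across bigenic libraries 1 to 4, against 48.1, 49.7, 57.4 and 55.8 CPM across control libraries 1 to 4. Bigenic library 3 stood above the other 3 bigenic libraries, which also lay above the controls. The log2 fold change was 0.72 ± 0.14 (SE of the fit, adjusted p = 0.0017), and without bigenic library 3 it was 0.53 and still called. Clk1 (ENSMUSG00000026034.17, chromosome 1, 58410189 to 58424066, minus strand), the closest paralogue of Clk4, stood at 167, 119, 174 and 172 CPM across bigenic libraries 1 to 4, against 134, 159.9, 184 and 198 CPM across control libraries 1 to 4. The groups overlapped over most of their range, with bigenic library 2 the lowest of the 8, and the log2 fold change was -0.09 ± 0.14 (SE of the fit, adjusted p = 0.61). Clk2 (ENSMUSG00000068917.12, chromosome 3, 89164795 to 89176921, plus strand) stood at 16.6, 18.7, 15.4 and 14.7 CPM across bigenic libraries 1 to 4, against 18.2, 16.4, 17 and 15.8 CPM across control libraries 1 to 4, with a log2 fold change of -0.05 ± 0.10 (SE of the fit, adjusted p = 0.74). Clk3 (ENSMUSG00000032316.8, chromosome 9, 57750624 to 57765860, minus strand) stood at 48.4, 53.5, 48.2 and 46.7 CPM across bigenic libraries 1 to 4, against 54.8, 55.9, 57.1 and 53.4 CPM across control libraries 1 to 4, with a log2 fold change of -0.17 ± 0.07 (SE of the fit, adjusted p = 0.073). Clk3 was called lower without bigenic library 2 (log2 fold change -0.21, adjusted p = 0.017) and with library size in place of TMM (-0.26, adjusted p = 0.012). The same held with upper-quartile factors (-0.23, adjusted p = 0.023) and in the 3 limma fits of log2 FPKM (adjusted p between 0.01 and 0.014). Clk3 was not called in 14 of the 20 alternatives run. Without control libraries 2 and 3 it was at -0.14 (adjusted p = 0.37). With Ttr as a covariate it was at -0.12 (adjusted p = 0.49). Clk3 exons overlap Edc3 on the opposite strand, and those of Srpk2 overlap Kmt2e.

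Among hnRNPs 8 of 20 rose and 3 fell, and the median of the 20 log2 fold changes was 0.11. The called share was 55% (40% higher and 15% lower), beside 44.3% of all genes tested (21.4% and 22.9%). Without control libraries 2 and 3, 7 were higher and 2 lower, or 45% called beside 21.9% of all genes. The A/B family, whose members bind pre-mRNA through paired RNA recognition motifs and often repress exons, was split. Hnrnpa3 (ENSMUSG00000059005.13, chromosome 2, 75659261 to 75669407, plus strand) stood at 35.6, 41.1, 45.4 and 40.6 CPM across bigenic libraries 1 to 4, against 20.3, 18, 19.3 and 24.4 CPM across control libraries 1 to 4. The groups did not overlap, and the log2 fold change was 0.99 ± 0.11 (SE of the fit, adjusted p = 7.1e-05). Hnrnpa0 (ENSMUSG00000007836.6, chromosome 13, 58125879 to 58128556, minus strand), which binds AU-rich elements, stood at 129.8, 116, 141 and 122 CPM across bigenic libraries 1 to 4, against 81.1, 67.5, 59.8 and 60.7 CPM across control libraries 1 to 4. It too did not overlap between the groups, with a log2 fold change of 0.92 ± 0.10 (SE of the fit, adjusted p = 7.6e-05). Hnrnpa1 (ENSMUSG00000046434.16, chromosome 15, 103240432 to 103246692, plus strand) stood at 3.59, 3.06, 4.13 and 3.95 CPM across bigenic libraries 1 to 4, against 2.04, 1.72, 1.97 and 1.62 CPM across control libraries 1 to 4. Its log2 fold change was 1.00 ± 0.16 (SE of the fit, adjusted p = 0.00064), and on log2(FPKM + 1), which shrinks changes of low genes, it was 0.50. The level of Hnrnpa1 is uncertain: 44.8% of its 75-base stretches occur in other annotated genes, 13 of them pseudogenes, and for Hnrnpa3 the share is 26.9%. Hnrnpa2b1, which shares no such stretch with another gene, averaged 89.4 ± 8.29 CPM in the bigenic and 83.5 ± 4.57 CPM in control cerebella (SD, n = 4 each), with a log2 fold change of 0.10 ± 0.08 (SE of the fit, adjusted p = 0.36).

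The Hnrnpd family binds AU-rich elements and regulates mRNA decay. Hnrnpdl (ENSMUSG00000029328.15, chromosome 5, 100033577 to 100039664, minus strand) stood at 259, 261, 389 and 305 CPM across bigenic libraries 1 to 4, against 180.5, 158, 191 and 172 CPM across control libraries 1 to 4, with no overlap and a log2 fold change of 0.79 ± 0.12 (SE of the fit, adjusted p = 0.00049). Hnrnpd (ENSMUSG00000000568.15, chromosome 5, 99955935 to 99978938, minus strand), also known as AUF1, stood at 51.6, 81.3, 56.8 and 47.6 CPM in bigenic libraries 1 to 4, against 38.7, 33.5, 36.3 and 38.1 CPM in control libraries 1 to 4. Bigenic library 2 was the highest, the groups did not overlap, and the log2 fold change was 0.70 ± 0.15 (SE of the fit, adjusted p = 0.003), or 0.50 without bigenic library 2. Hnrnpd exons overlap Gm17092 on the opposite strand over 385 bases. Hnrnpab averaged 112 ± 16.6 CPM in the bigenic and 109.8 ± 2.45 CPM in control cerebella (SD, n = 4 each) and did not pass (log2 fold change 0.03, adjusted p = 0.79).

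Hnrnpk (ENSMUSG00000021546.18, chromosome 13, 58391142 to 58403343, minus strand), a KH-domain protein that binds C-rich RNA and the most abundant member per length, stood at 275, 245, 374 and 314 CPM across bigenic libraries 1 to 4, against 213, 214, 227 and 209 CPM across control libraries 1 to 4. The groups did not overlap, and the log2 fold change was 0.48 ± 0.11 (SE of the fit, adjusted p = 0.005), with 20.7% of its 75-base stretches shared with 3 other genes, 2 of them pseudogenes. Hnrnpk exons overlap Rmi1 on the opposite strand over 330 bases. Hnrnpl (ENSMUSG00000015165.16, chromosome 7, 28808541 to 28822266, plus strand), which binds CA repeats and whose premature-stop exon is printed above, stood at 212, 205, 231 and 217 CPM across bigenic libraries 1 to 4, against 186, 188, 184 and 182 CPM across control libraries 1 to 4. Its rise was small, with a log2 fold change of 0.23 ± 0.06 (SE of the fit, adjusted p = 0.014). The call was lost with library size in place of TMM (0.14, adjusted p = 0.075) and without control libraries 2 and 3 (0.23, adjusted p = 0.12). It was also lost in the 3 limma fits of log2 FPKM (adjusted p between 0.073 and 0.084). Hnrnpul1 (ENSMUSG00000040725.13, chromosome 7, 25721165 to 25754757, minus strand), a relative of Hnrnpu with a role in the DNA damage response, stood at 121, 131, 136 and 133 CPM across bigenic libraries 1 to 4, against 91.5, 82.9, 92.4 and 86 CPM across control libraries 1 to 4. The groups did not overlap, and the log2 fold change was 0.56 ± 0.07 (SE of the fit, adjusted p = 0.00012).

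The 3 hnRNP genes called lower were Hnrnpm, Hnrnph1 and Hnrnpu. Hnrnpm (ENSMUSG00000059208.15, chromosome 17, 33646233 to 33686860, minus strand) stood at 68.2, 81, 71.2 and 69.7 CPM across bigenic libraries 1 to 4, against 111, 105, 113 and 105 CPM across control libraries 1 to 4. The groups were well apart, with a log2 fold change of -0.58 ± 0.08 (SE of the fit, adjusted p = 0.00015), and 20.7% of its 75-base stretches are shared with March2 on the same strand. Hnrnph1 (ENSMUSG00000007850.16, chromosome 11, 50376990 to 50386528, plus strand), which binds runs of G, stood at 165, 188, 179 and 179 CPM across bigenic libraries 1 to 4, against 210.2, 222, 234 and 245 CPM across control libraries 1 to 4. Its log2 fold change was -0.36 ± 0.07 (SE of the fit, adjusted p = 0.0022), again with no overlap. Hnrnpu (ENSMUSG00000039630.10, chromosome 1, 178321108 to 178337797, minus strand), a nuclear matrix protein also known as scaffold attachment factor A, stood at 217, 319, 206 and 199 CPM across bigenic libraries 1 to 4, against 306, 328, 330.0 and 304 CPM across control libraries 1 to 4. Bigenic libraries 1, 3 and 4 lay below the controls and bigenic library 2 among them, with a log2 fold change of -0.43 ± 0.13 (SE of the fit, adjusted p = 0.022). The call of Hnrnpu was lost without bigenic library 1 (log2 fold change -0.39, adjusted p = 0.06), 3 (-0.38, 0.065) or 4 (-0.36, 0.061), without control library 2 (-0.41, 0.055) or 3 (-0.41, 0.052), and without both of those controls (-0.38, 0.15). Without bigenic library 2 the log2 fold change was -0.61. Hnrnpu exons overlap Cox20 on the opposite strand over 804 bases. The remaining 9 hnRNP genes had log2 fold changes between -0.11 and 0.18 and did not pass. Of these, Hnrnph2 was at 0.18 (adjusted p = 0.22), Hnrnpr at -0.11 (adjusted p = 0.23), Hnrnpf at 0.11 (adjusted p = 0.41), Hnrnph3 at 0.12 (adjusted p = 0.57), Hnrnpll at 0.04 (adjusted p = 0.66) and Hnrnpul2 at 0.03 (adjusted p = 0.87). Hnrnpr was called lower with library size in place of TMM (-0.19, adjusted p = 0.03) and on log2(FPKM + 1) (-0.18, adjusted p = 0.043) and log2(FPKM + 0.1) (-0.19, adjusted p = 0.044). In the other 17 of 20 alternatives Hnrnpr was not called. Hnrnpc, which binds U tracts, was at -0.04 (adjusted p = 0.83) and was called lower without bigenic library 3 (-0.20, adjusted p = 0.042). For Hnrnpf 55.9% of the 75-base stretches are shared with 10 other genes, 6 of them pseudogenes.

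The libraries of the bigenic group differed among themselves over the members. Bigenic library 3 was the highest of the 4 bigenic libraries for 29 of the 39 members and the lowest for 1, whereas over all genes tested it was the highest for 30.6% and the lowest for 33.2%. Bigenic library 2 was the highest for 10 members, among them Hnrnpu, Hnrnpd and Hnrnpul2, and the lowest for 17, among them Srsf3, Srsf7 and Clk1, whereas over all genes it was the highest for 34.5% and the lowest for 30.5%. Bigenic library 2 also had the highest summed granule neuron markers, 8445 CPM, and oligodendrocyte markers, 6066 CPM, of the 8 libraries, and bigenic library 3 the highest summed astrocyte markers, 14230 CPM, and Purkinje cell markers, 16190 CPM. The part of these levels in the spread between bigenic libraries was not tested. Over the members the mean absolute deviation of log2 CPM from the group mean was 0.112, 0.191, 0.193 and 0.0775 in bigenic libraries 1 to 4, against 0.0981, 0.0615, 0.0661 and 0.0887 in control libraries 1 to 4. Over all genes tested it was larger in each library, at 0.146, 0.208, 0.204 and 0.127 in bigenic libraries 1 to 4, against 0.16, 0.101, 0.14 and 0.151 in control libraries 1 to 4.

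**Figure D3:**
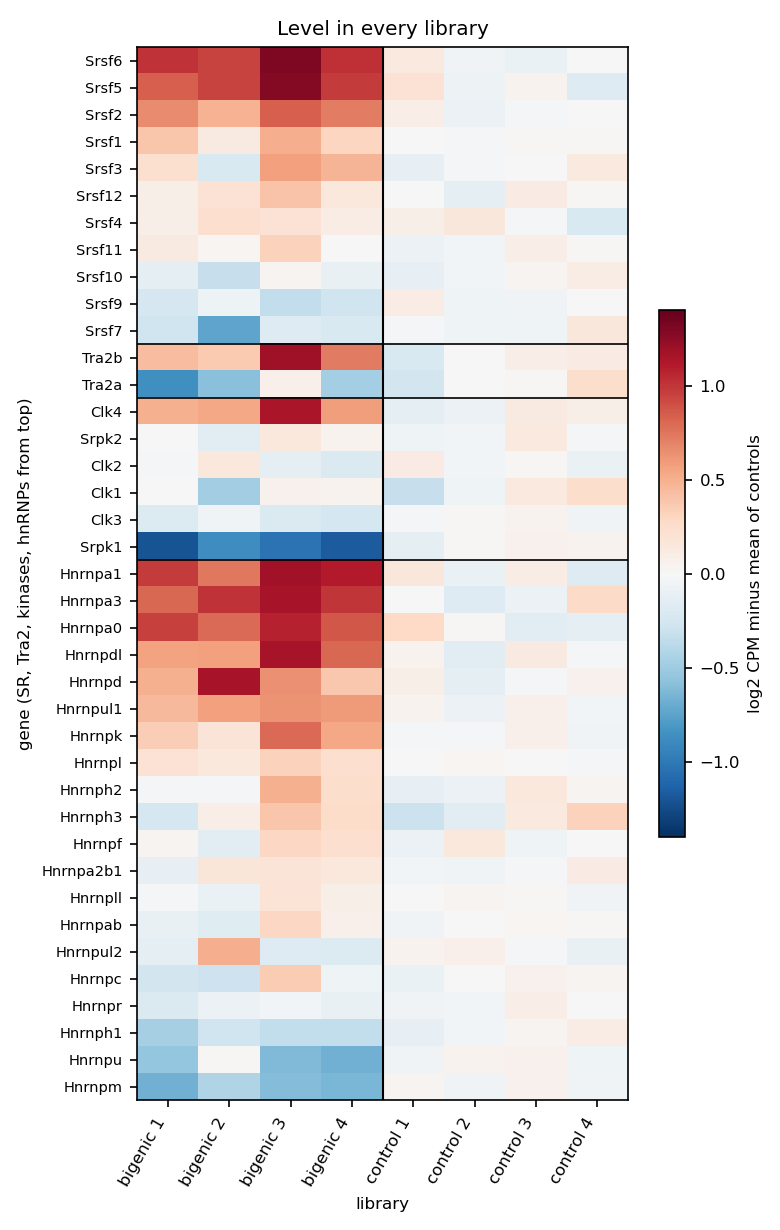
Log2 CPM of each of the 39 genes (rows, grouped as SR proteins, Tra2 proteins, kinases and hnRNPs from the top) in each library (columns, bigenic 1 to 4 and then control 1 to 4), less the mean of the 4 controls. Red is higher and blue lower than that mean; the column of bigenic library 3 is the reddest, and that library was the highest bigenic one for 29 of the 39 members.

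Ratios of related members within a library do not depend on how libraries are scaled. Of 23 pairs of related members, 17 had FPKM ratios that did not overlap between bigenic and control cerebella, 8 higher and 9 lower in bigenic tissue, and over all 741 pairs that the 39 members can form the share was 57.9%. The pairs were chosen with the calls known, and 16 of the 23 join genes with different calls, of which 15 did not overlap, so the ratios largely restate the calls and are given as a description with no test. Of the 5 pairs of genes not called, 2 did not overlap, and of the 2 pairs of genes with the same call none was apart. A ratio shows that 2 genes changed unequally and not which of them changed. The ratio of Tra2a to Tra2b, in FPKM, was 0.371, 0.472, 0.421 and 0.398 in bigenic libraries 1 to 4, against 0.878, 0.907, 0.864 and 1 in control libraries 1 to 4. The bigenic values were all below the control values, with a log2 difference of -1.14, although the level of Tra2a alone overlapped between the groups. The ratio of Srpk1 to Srpk2 was 0.226, 0.315, 0.229 and 0.224 in bigenic libraries 1 to 4, against 0.496, 0.543, 0.495 and 0.55 in control libraries 1 to 4, a log2 difference of -1.08. Srpk2 was thus at a higher FPKM than Srpk1 in every library, by more in the bigenic ones.

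The ratio of Clk1 to Clk4 was 1.38, 0.955, 0.916 and 1.34 in bigenic libraries 1 to 4, against 1.71, 1.97, 1.96 and 2.18 in control libraries 1 to 4. In controls Clk1 was the more abundant of the pair, and in bigenic libraries 2 and 3 it was not; the log2 difference was -0.79. The ratio of Srsf3 to Srsf7 was 1.6, 1.62, 1.91 and 1.81 in bigenic libraries 1 to 4, against 1.06, 1.16, 1.18 and 1.11 in control libraries 1 to 4. Its groups did not overlap, at a log2 difference of 0.62, although Srsf3 alone did not pass. The ratio of Srsf4 to Srsf6 differed by -0.92, that of Hnrnpu to Hnrnpul1 by -1.02, that of Hnrnpm to Hnrnpk by -1.05 and that of Srsf2 to Srsf7 by 1.03 on the log2 scale. The ratio of Srsf10 to Srsf12 differed by -0.34 and that of Srsf10 to Srsf11 by -0.25, though no gene of these pairs passed alone. The ratio of Srsf5 to Srsf6, which rose together, overlapped between the groups, with a log2 difference of -0.06. Pairs whose ratio overlapped also included Clk1 with Clk2, Hnrnpdl with Hnrnpd, Hnrnph3 with Hnrnpf, Hnrnpr with Hnrnpc and Hnrnpul1 with Hnrnpul2.

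**Figure D4:**
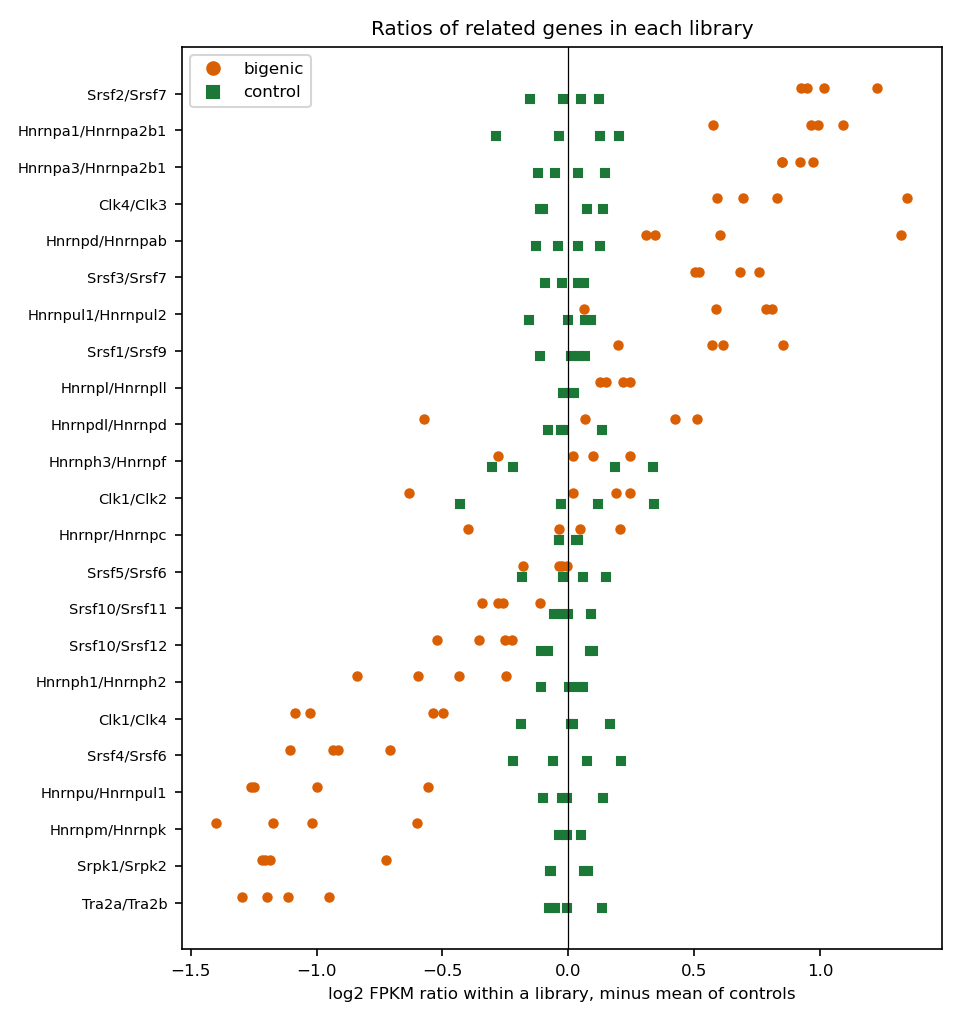
Log2 ratio of the FPKM of 2 related genes in each library, less the mean of the 4 controls (horizontal axis), for the 23 pairs; orange circles are bigenic and green squares control libraries. The groups are apart for 17 pairs, from Srsf2/Srsf7 at a mean difference of 1.03 to Tra2a/Tra2b at -1.14.

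Other genes of the splicing machinery were examined beside the members as lists, described by counts of calls without a test of the list. Of 24 genes of the U1 and U2 particles and the branch site 12 rose and 2 fell, and the median log2 change was 0.29. Without control libraries 2 and 3, where 21.9% of all genes were called, 5 rose and 1 fell. Sf3b1, the U2 subunit that holds the branch site, rose by 0.58 ± 0.10 (SE of the fit, adjusted p = 0.0007), Sf1, the branch point binding protein, by 0.63 ± 0.09 (SE of the fit, adjusted p = 0.00032) and the U2 protein Snrpa1 by 0.78 ± 0.12 (SE of the fit, adjusted p = 0.00046) on the log2 scale. Of 27 genes of the tri-snRNP and the Sm and LSm rings 12 rose and 2 fell, with a median of 0.18, or 7 and 1 without those controls. The Sm protein gene Snrpb rose by 0.79 (adjusted p = 0.001) and Eftud2, a GTPase of the U5 particle, by 0.38 (adjusted p = 0.00097), whereas Prpf6 was lower at -0.57 (adjusted p = 0.00066). Of 27 SR-related coactivators and speckle proteins 13 rose and 1 fell, with a median of 0.32, and without those controls 9 were called, each higher. Srrm1, an SR-related matrix protein, averaged 25.5 ± 4.67 CPM in the bigenic and 13 ± 0.667 CPM in control cerebella (SD, n = 4 each), a log2 fold change of 0.97 ± 0.13 (SE of the fit, adjusted p = 0.00015). Son, a scaffold of nuclear speckles, rose by 0.44 (adjusted p = 0.00086) and Scaf8 by 0.59 (adjusted p = 0.00053).

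Splicing factors whose use varies between tissues, a list that also holds broadly expressed genes such as Ptbp1 and Elavl1, were called in both directions. Of the 28 tested 4 rose and 4 fell, with a median of 0.0012, or 1 and 4 without control libraries 2 and 3. Rbfox2, Rbfox3, Nova2 and Ptbp1 were higher, with log2 fold changes of 0.24 to 0.56, and Elavl4 was lower (log2 fold change -0.44, adjusted p = 0.002). Of the 3 genes of the list with the smallest p, the CELF family gene Celf6 (log2 fold change -0.99, adjusted p = 0.0012) and the neuronal Elavl2 (log2 fold change -0.66, adjusted p = 0.00083) were lower. Khdrbs3, a STAR family gene, was also lower and averaged 11.6 ± 1.31 CPM in the bigenic and 23.3 ± 4.98 CPM in control cerebella (SD, n = 4 each). Of 18 RBM genes 6 rose and 5 fell (5 and 4 without those controls), with Rbm33 higher (log2 fold change 0.72, adjusted p = 4.7e-05) and Rbm5 (log2 fold change -0.87, adjusted p = 4.5e-05) and Rbm4b (log2 fold change -0.95, adjusted p = 3.5e-05) lower. Of 20 FET and related RNA-binding proteins 8 rose and 1 fell (3 and 1 without those controls). Ewsr1, an FET protein, was higher (log2 fold change 0.50, adjusted p = 0.00028), as was Fubp3 (log2 fold change 0.56, adjusted p = 0.00018), and Fubp1 was lower (log2 fold change -0.65, adjusted p = 8.2e-05). The called shares of these lists ran from 28.6% for the tissue-regulated factors to 61.1% for the RBM genes, beside 44.3% of all genes tested.

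A list of other kinases, phosphatases and importins of SR proteins, which also holds Hsf1, was called in both directions. Of its 23 genes 7 were higher and 4 lower (47.8%, beside 44.3% of all genes), with a median of 0.12. Without control libraries 2 and 3, where 21.9% of all genes were called, 1 was higher and 2 lower. Dyrk1a, a kinase that phosphorylates several SR proteins, was higher (log2 fold change 0.66, adjusted p = 0.00043), Akt2 was lower (log2 fold change -0.83, adjusted p = 0.00017), and Hsf1, the heat shock transcription factor, was lower (log2 fold change -0.58, adjusted p = 0.00071). Of 16 nonsense-mediated decay factors 6 rose and the other 10 did not pass, with a median of 0.21. Their called share was 37.5%, below the 44.3% of all genes. Without control libraries 2 and 3 the edgeR test called 0 of the 16, beside 21.9% of all genes. There 5 were at an unadjusted p under 0.05, with a median of 0.20, and no other tool was run in that setting. The kinase Smg1, which phosphorylates Upf1, rose by 0.47 (adjusted p = 0.0057), Smg8 by 0.44 (adjusted p = 0.01) and the exon junction protein Casc3 by 0.41 (adjusted p = 0.0029). Cirbp and Rbm3, cold-inducible RNA-binding proteins, had larger log2 fold changes than any of the 39 members, 2.19 ± 0.13 (SE of the fit, adjusted p = 2.6e-06) for Cirbp and 1.73 ± 0.12 (SE of the fit, adjusted p = 3.2e-06) for Rbm3.

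**Figure D5:**
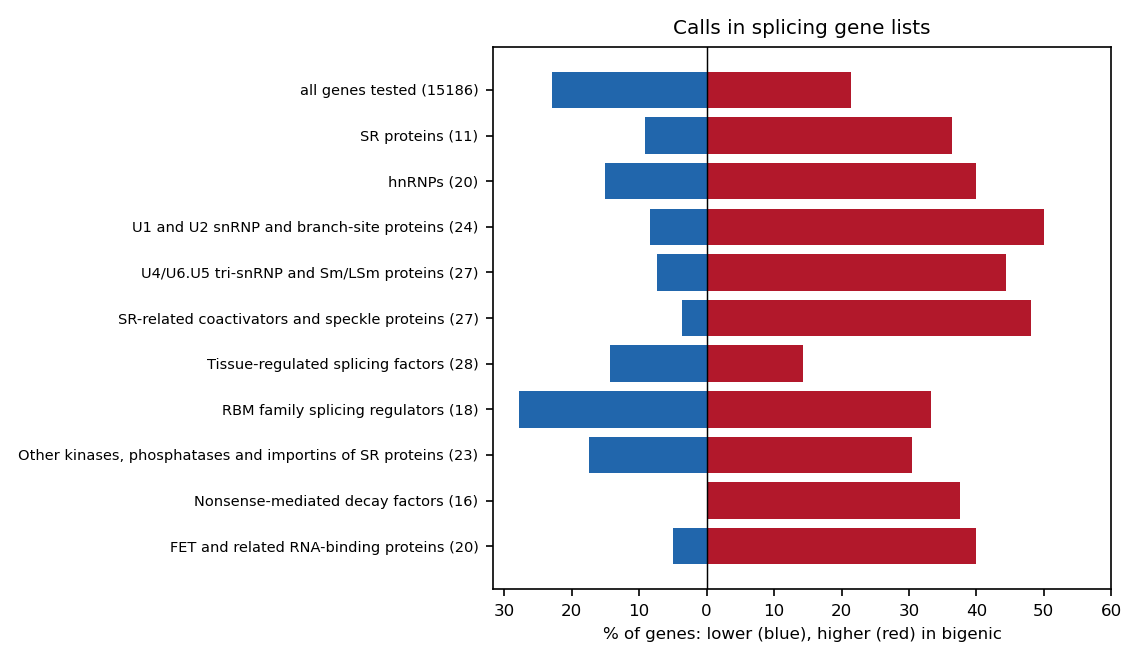
Share of the genes of each list (number tested in brackets) called higher in bigenic cerebellum (right, red) or lower (left, blue), in percent of the genes tested. All genes tested stand at 21.4% higher and 22.9% lower, SR proteins at 36.4% and 9.09%, and hnRNPs at 40% and 15%.

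Promoter windows of 250 bases before to 50 after the annotated start were taken from RefSeq (GRCm38.p6) for 36 of the 39 members. Letters were searched on both strands. A gene was counted as holding a motif if any of its windows held it, and some members have several windows. The genes compared were all those with a window, whether or not they were tested here. The cyclic AMP response element TGACGTCA was found in 2 members, Clk4 and Tra2a, or 5.56%, beside 2.03% of 27025 genes with a window. The E-box CACGTG was in 6 members (16.7%, beside 8.09% of all), the heat shock element core GAANNTTC in 5 (13.9%, beside 9.04%), CCAAT in 20 (55.6%, beside 41.1%), the NRF1 site in 1 (2.78%, beside 1.07%) and the palindromic glucocorticoid response element in 0 (beside 0.0111%). The windows of Clk4 and Tra2a, which moved in opposite directions by fold change with Tra2a short of the threshold, are shown because they hold the first of these, in capitals. They are at chr11:51262864-51263163, plus strand, for Clk4 and chr6:49264003-49264302, minus strand, for Tra2a.
Clk4: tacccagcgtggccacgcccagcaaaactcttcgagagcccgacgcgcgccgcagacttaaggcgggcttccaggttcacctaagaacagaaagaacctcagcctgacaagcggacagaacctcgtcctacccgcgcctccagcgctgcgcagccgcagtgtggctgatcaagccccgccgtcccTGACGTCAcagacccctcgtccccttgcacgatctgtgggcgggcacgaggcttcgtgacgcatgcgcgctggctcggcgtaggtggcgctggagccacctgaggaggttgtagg
Tra2a: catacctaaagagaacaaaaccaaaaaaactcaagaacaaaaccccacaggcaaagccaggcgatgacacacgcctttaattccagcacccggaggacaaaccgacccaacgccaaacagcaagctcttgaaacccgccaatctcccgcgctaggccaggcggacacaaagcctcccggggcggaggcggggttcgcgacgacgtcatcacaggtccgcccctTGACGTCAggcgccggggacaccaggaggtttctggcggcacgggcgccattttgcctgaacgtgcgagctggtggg
A match describes the letters of these windows and shows no binding.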

How the data were processed

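RNA was measured by sequencing of whole cerebellum in 4 bigenic and 4 control mice. Each label carries its own number, taken here as 1 mouse per library, and libraries are numbered 1 to 4 within a group in order of accession, as names only. The authors deposited read counts per gene symbol, whole numbers that were not normalised, and FPKM values, which equal the counts divided by a length fixed per gene and by the column total, as checked on the values. STAR and HTSeq, with the build mm10, are listed per the submitters' processing notes. Versions, the strand setting of the counting and the handling of reads with several matches are not given in the sources used here. The labels disagree on RNA extraction, library kit and sequencer: the sample protocols name a Qiagen kit, stranded TruSeq with ribosomal RNA removal and a HiSeq, and the series design names mirVana, Nugen Ovation and a NextSeq.

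Counts were fitted in R 4.3.3 with edgeR 4.0.16 (filterByExpr, TMM, robust quasi-likelihood F test) over 15186 genes, with Benjamini-Hochberg adjustment over all of them. Alternatives used DESeq2 1.42.0 and limma 3.58.1 on log2(FPKM + 1) and log2(FPKM + 0.1). Ratios are described by whether the groups overlap, because the pairs were chosen with the calls known, in place of the permutation test first planned. Counts by class, list and decay transcript without control libraries 2 and 3 were added after seeing the data. Gene positions and transcripts are from GENCODE M21, whose assembly GRCm38 is mm10, and promoters from RefSeq (GRCm38.p6). The members, lists, pairs and the rule for named genes were chosen with earlier results of these data known. By that rule the 8 higher and 8 lower members with the smallest p (5 of the lower passed), all kinases and Tra2 genes, the 3 most abundant genes of each large class and up to 3 genes per list are described, and every other member is given its fold change. Outside the rule, Rbfox2, Rbfox3, Nova2, Ptbp1 and Elavl4 were also named, so that every called gene of the tissue-regulated list is given. Hnrnpd and Srsf3 were given in full after their values were seen, since bigenic library 2 was the highest of the 8 in Hnrnpd and the lowest in Srsf3. Replicates of a group differed by more than sampling noise.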

Additional observations from a re-analysis of the deposited data

Results flagged for a closer look

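In 7 of the 78 groups of 4 libraries (39 members in bigenic and in control tissue), 1 library stood apart by Dixon's criterion, by its gap to the nearest of the others relative to the group's range. Chance alone flags about 1 in 20 groups. Of the 7, 3 concern bigenic library 2. Hnrnpu was at 319 CPM in bigenic library 2, against 199 to 217 CPM in the other 3 bigenic libraries. Hnrnpul2 was at 95.4 CPM in bigenic library 2, against 58.8 to 61.4 CPM in the other 3 bigenic libraries. Clk1 was at 119 CPM in bigenic library 2, against 167 to 174 CPM in the other 3 bigenic libraries. Clk4 was at 117 CPM in bigenic library 3, against 74.5 to 79 CPM in the other 3 bigenic libraries. Hnrnpa2b1 was at 77 CPM in bigenic library 1, against 92.2 to 94.7 CPM in the other 3 bigenic libraries. In control tissue the flagged genes were an SR protein kinase and the SR protein with a zinc knuckle. Srpk2 was at 316 CPM in control library 3, against 275 to 281 CPM in the other 3 control libraries. Srsf7 was at 135 CPM in control library 4, against 115 to 118 CPM in the other 3 control libraries. Values without these libraries stand beside the results above for Hnrnpu, Clk4 and Srsf7. Without bigenic library 2 the log2 fold change of Clk1 was 0.02 and that of Hnrnpul2 -0.17, and without control library 3 that of Srpk2 was 0.06, none of them called.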

How the results depend on the processing

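The 14 higher and 5 lower calls kept their direction under all 20 alternatives, and 11 of them (Srsf6, Srsf5, Srsf2, Srpk1, Hnrnpa3, Hnrnpa0, Hnrnpa1, Hnrnpul1, Hnrnpm, Hnrnph1 and Hnrnpdl) kept their call under all 20 too. With the Ttr level as a covariate 8 members were higher and 3 lower, where 19.3% of all genes were called; the calls of Hnrnpd, Hnrnpk, Hnrnpl, Hnrnpu, Clk4, Srsf1, Srsf7 and Tra2b were lost, with adjusted p between 0.055 and 0.22, at log2 fold changes of 0.60, 0.53, 0.25, -0.36, 0.67, 0.33, -0.47 and 0.65 in that order, against 0.70, 0.48, 0.23, -0.43, 0.72, 0.33, -0.34 and 0.71 without the covariate. The count of lower members was 8 with upper-quartile factors and on unfiltered log2(FPKM + 1), 9 on log2(FPKM + 1), on log2(FPKM + 0.1) and with unscaled library sizes, and 3 without control libraries 2 and 3. In that order 44.4%, 28.4%, 44.3%, 44.4%, 44.8% and 21.9% of all genes were called. Higher genes made up 39.1%, 35.6%, 35.3%, 35.2%, 35.7% and 47.7% of those calls, in place of 48.2% in the main fit. Leaving out 1 library gave 14 to 15 higher and 3 to 7 lower members. The cause was not tested. The sign changes below are all of members that were not called, in either fit. With Ttr as a covariate the log2 fold changes of Hnrnpa2b1 -0.0182, Hnrnph3 -0.119 and Clk2 0.0164 changed sign. With upper-quartile factors the log2 fold changes of Hnrnpll -0.0141, Hnrnpab -0.0249, Hnrnpul2 -0.0249 and Srpk2 -0.0477 changed sign. With library size alone the log2 fold changes of Hnrnpll -0.0408, Hnrnpab -0.0524, Hnrnpul2 -0.0534 and Srpk2 -0.0741 changed sign. With log2(FPKM + 1) the log2 fold changes of Hnrnpll -0.0416, Hnrnpab -0.06, Hnrnpul2 -0.0754 and Srpk2 -0.0738 changed sign. With log2(FPKM + 0.1) the log2 fold changes of Hnrnpll -0.0436, Hnrnpab -0.0614, Hnrnpul2 -0.0831 and Srpk2 -0.0753 changed sign. With unfiltered log2(FPKM + 1) the log2 fold changes of Hnrnpll -0.0416, Hnrnpab -0.06, Hnrnpul2 -0.0754 and Srpk2 -0.0738 changed sign. With no filter on low counts the log2 fold changes of Srpk2 -0.00837 changed sign. Leaving out 1 library gave log2 fold changes of -0.0163 to 0.0883 for Hnrnpll, -0.0707 to 0.0956 for Hnrnpab, -0.204 to 0.0365 for Hnrnpc, -0.17 to 0.0953 for Hnrnpul2, -0.191 to 0.0193 for Clk1 and -0.0426 to 0.0589 for Srpk2. The replicate numbers are names only. Deviations of same-numbered libraries from their group means had r = 0.329, 0.0239, 0.166 and 0.0625 for numbers 1 to 4. For libraries with different numbers r ran from -0.278 to 0.1. These values do not settle whether libraries were paired. With the replicate block 14 members were higher and 6 lower, the added one being Tra2a (-0.46, adjusted p = 0.009), and 49% of all genes were called in place of 44.3%. Ratios of counts give the same differences as ratios of FPKM by construction, since the length is fixed per gene. They are therefore no separate check of the 23 ratios.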

Other observations

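Members called higher had a median gene span of 8265 bases, those called lower 16690 and those not called 14699.5 (14, 5 and 20 genes, GENCODE M21), a description with no test. Of the 14 members that share no 75-base stretch with another annotated gene 4 were higher and 2 lower (42.9% called), and of the 15 that share more than 10% of theirs 6 were higher and 1 lower (46.7%). Antisense overlap of exons was annotated for 13 members, of which 5 (Srsf1, Srsf2, Hnrnpd, Hnrnpk and Hnrnpl) were higher and 1 (Hnrnpu) lower (46.2%). These shares are near the 44.3% called among all genes tested.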
